A study of Xenopus laevis with 12 samples.

Results

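The response of whole *X. laevis* embryos to thioridazine was measured in small (100-embryo) groups. The comparison held 3 RNA-seq libraries of thioridazine-treated embryos (90 µM) and 3 libraries of untreated embryos (no drug), 6 of the 12 libraries of the series, and 21731 of the 42638 genes in the count table, those with at least 1.8 CPM (counts scaled to the library total) in 3 or more of the 12 libraries. All embryos were wild type and were collected at stage 25. Thioridazine was present from stage 12.5 to stage 25, and treated and untreated embryos were both kept at 18 °C during that time. The other 6 libraries came from thioridazine-treated and untreated large (300-embryo) groups and were used to see where the response in groups of 100 differed. Each library was made from 15 pooled embryos, so a change in the number of cells of a type and a change in RNA per cell cannot be told apart.

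The sources for these embryos do not say the same thing throughout. Group sizes come from the paper, since the labels say only small and large. The concentration and the stages given here are those of the labels, while the paper also gives a later end of treatment, a later stage for RNA extraction and, in a figure legend, another concentration. Embryos are described both as a single clutch and as pooled from separate mothers. The paper's reporting summary says that experiments were independently repeated over several weeks. Whether the replicate numbers mark those repeats is not stated. The p-values therefore cover only the spread among these libraries, which may be technical.

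Thioridazine is a phenothiazine that blocks dopamine receptors, and as a cationic amphiphilic drug it belongs to a class known to collect in lysosomes. Several pathways met below are defined by how they are switched on. When sterols run low in the endoplasmic reticulum, the transcription factor SREBP is released from its anchor and raises genes of sterol uptake and synthesis. ATF4 raises genes of amino acid and serine synthesis under stress, NRF2 raises genes of glutathione synthesis under oxidative stress, and immediate early genes are transcribed within a short time of a stimulus without new protein synthesis. *X. laevis* is an allotetraploid and carries many genes as a pair of homeologs, marked .L and .S. Reads that fit both homeologs, or several near-identical neighbours, were divided between them by the authors' counting, so the value of each copy is uncertain.

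In groups of 100 the thioridazine libraries held 3639288 to 7822395 expected counts and the untreated libraries 3550845 to 6540861. The depths of replicate 2 differed most, at 7822395 in the thioridazine library and 3550845 in the untreated library. Deviations from the group means were shared by libraries of 1 replicate number, with correlations of 0.783, 0.412 and 0.663 over the 500 most variable genes. In those genes 77.1% of the variance lay between replicate numbers and 8.98% between treatments. The replicate number was a block in the fit, and all but 2 of the calls below depended on it.

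Thioridazine raised 39 genes and lowered 0 in groups of 100 (0.179% and 0% of the genes tested; edgeR's quasi-likelihood test with Benjamini-Hochberg adjustment, adjusted p under 0.05). The raised genes included the low-density lipoprotein receptor (*ldlr*) and other genes of sterol control, a cytochrome P450, both homeologs of a serine synthesis enzyme (*psat1*), both homeologs of the orphan nuclear receptor gene *nr4a1*, and 15 genes that lie in 2 neighbourhoods of the genome. Their log2 fold changes, thioridazine over untreated, ranged from 0.78 to 3.91 with a median of 2.04. The largest was that of LOC108717227, named after its values were seen. Its untreated libraries stood at 3.22, 0.29 and 0.29 CPM, so its fold change rests on values near the floor. The median over all genes tested was -0.01, and 47.6% of them lay above 0. With no adjustment, 509 genes above 0 and 230 below it had p under 0.05, fewer in all than the 1087 that chance gives. DESeq2 and limma voom, both with the block, also lowered 0 genes.

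Of the 39 raised genes, 33 had every thioridazine library above every untreated library, against 2.22% of all genes tested. The test chose these genes for that difference, so the count describes them and adds no support. Within replicate numbers the median log2 ratio of the 39 genes was 1.82 in pair 1, 2.03 in pair 2 and 1.88 in pair 3. The smallest fold changes were those of pnpla3.L, which encodes a triglyceride lipase in humans (0.78), and gclc.L (0.83). Just inside the threshold were dnajb14.L, which encodes a J-domain chaperone partner of the endoplasmic reticulum (edgeR adjusted p = 0.0476), and pnpla3.L (edgeR adjusted p = 0.0455). Just outside it was sqstm1.L, the gene of an autophagy receptor (log2 fold change 1.07, edgeR adjusted p = 0.0505). pnpla3.L, dnajb14.L and sqstm1.L were named after their values were seen.

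Without the replicate block 2 genes were raised, cyp2j2.L and LOC108696199, and 0 were lowered. Without untreated replicate 3 there were 21 raised genes and without thioridazine replicate 1 there were 23, all among the 39, and without untreated replicate 1 there were 24, of which 20 were among the 39. Without all libraries of replicate number 2 there were 11 raised genes, and without those of number 3 there were 17, again all among the 39. None of the 39 genes changed direction in any of these fits.

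**Figure D1:**
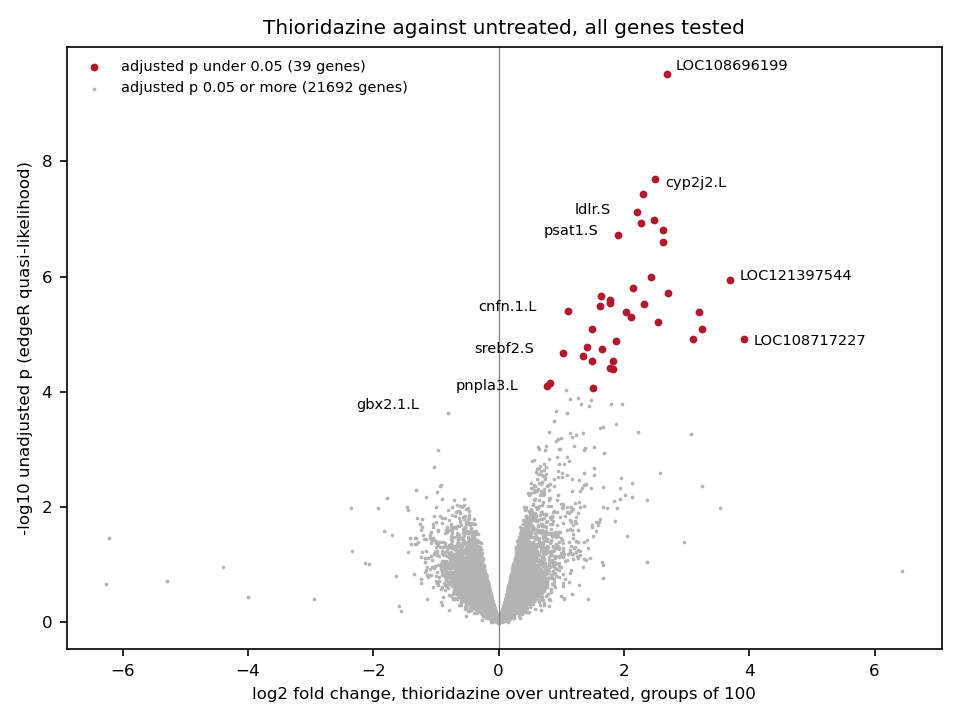
Log2 fold change, thioridazine over untreated in groups of 100 (horizontal axis), against -log10 of the unadjusted p (vertical axis) for the 21731 genes tested, 1 point per gene. The 39 red points are the genes past the threshold, all to the right of 0, and gbx2.1.L is the gene with the smallest p on the left.

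LOC108696199, a protein-coding gene without a symbol, had the smallest p of all genes. It stood at 184, 245 and 173 CPM in thioridazine libraries, against 22.2, 36.1 and 36.6 CPM in untreated libraries, with no overlap between the groups. Its log2 fold change was 2.69 (standard error 0.18, edgeR adjusted p = 6.67e-06). The cytochrome P450 gene cyp2j2.L, whose human counterpart oxidises arachidonic acid, stood at 19.5, 15.5 and 16.2 CPM in thioridazine libraries, against 3.22, 2.89 and 2.86 CPM in untreated libraries. The values within each group lay close together, at 17.1 ± 2.15 CPM in thioridazine libraries and 2.99 ± 0.20 CPM in untreated libraries (SD, n = 3 each). The change was 5.65-fold, a log2 fold change of 2.50 (standard error 0.23, edgeR adjusted p = 2.2e-04). Of the 29 measured cytochrome P450 genes, which covered drug, lipid, retinoid and steroid oxidation, cyp2j2.L alone rose, 0 fell and 16 lay above 0, with a median of 0.18. The next smallest p in this list was that of cyp2e1.L, with 23.5, 16.7 and 9.74 CPM in thioridazine libraries, against 8.05, 6.07 and 4.57 CPM in untreated libraries (log2 fold change 1.45, edgeR adjusted p = 0.0825), a gene named after its values were seen.

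A list of genes of sterol uptake, export and SREBP control held 4 raised members, among them both homeologs of ldlr. The gene lists used here were chosen with earlier results of these data known, so their counts describe and add no support. Over all genes tested, 0.179% rose and 47.6% lay above 0. ldlr.S, a homeolog of the receptor that takes up cholesterol-carrying lipoproteins, stood at 51.7, 31.3 and 19.5 CPM in thioridazine libraries, against 8.05, 6.36 and 7.43 CPM in untreated libraries. ldlr.L stood at 34.9, 26.8 and 15.6 CPM in thioridazine libraries, against 2.63, 4.34 and 6.86 CPM in untreated libraries. For both homeologs the groups did not overlap, and replicate 1 was the highest and replicate 3 the lowest of the thioridazine libraries. The log2 fold change was 2.21 for ldlr.S (standard error 0.22, edgeR adjusted p = 4.2e-04) and 2.55 for ldlr.L (standard error 0.36, edgeR adjusted p = 0.0058).

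In the regulators of the pathway thioridazine replicate 1 was again the highest. srebf2.S, which encodes the SREBP that controls cholesterol genes, stood at 97.8, 75.4 and 50.5 CPM in thioridazine libraries, against 37.8, 36.7 and 33.7 CPM in untreated libraries. Its log2 fold change was 1.03 (standard error 0.17, edgeR adjusted p = 0.0147). insig1.S, whose product holds SREBP back in the endoplasmic reticulum, stood at 10.7, 8.05 and 5.61 CPM in thioridazine libraries, against 3.07, 3.18 and 2.57 CPM in untreated libraries. Neither gene had overlapping groups, and the log2 fold change of insig1.S was 1.49 (standard error 0.25, edgeR adjusted p = 0.0191). The other homeologs did not pass the test: the log2 fold change was 1.24 for insig1.L (standard error 0.28, edgeR adjusted p = 0.209) and 0.38 for srebf2.L (standard error 0.27).

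In all, 4 of the 30 measured genes of sterol uptake, export and SREBP control rose and 0 fell, and 23 lay above 0 with a median of 0.23. The enzymes of cholesterol and isoprenoid synthesis, the other branch of the pathway, gave 0 of 26 past the test, with 21 above 0 and a median of 0.29. The smallest p among them was that of the methylsterol monooxygenase gene msmo1.S, with 6.83, 3.27 and 5.90 CPM in thioridazine libraries, against 0.88, 2.31 and 0.29 CPM in untreated libraries (log2 fold change 2.23, edgeR adjusted p = 0.199). This gene, named after its values were seen, was low in every library, and its groups did not overlap. Fatty acid synthesis and desaturation gave 0 of 21 past the test, with 17 above 0 and a median of 0.28.

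Further genes that handle lipids rose outside these lists. acsbg2.S, of the acyl-CoA synthetase family that activates long-chain fatty acids, stood at 23.5, 9.18 and 9.15 CPM in thioridazine libraries, against 3.51, 2.31 and 1.71 CPM in untreated libraries. Its groups did not overlap, and the log2 fold change was 2.48 (standard error 0.26, edgeR adjusted p = 4.2e-04). The other homeolog, acsbg2.L, was far more abundant, at 141 ± 21.7 CPM in thioridazine libraries and 114 ± 1.25 CPM in untreated libraries (SD, n = 3 each), and its log2 fold change was 0.29 (standard error 0.15). stard5.L, whose human counterpart binds sterols and bile acids, stood at 11.1, 8.42 and 9.74 CPM in thioridazine libraries, against 2.34, 2.60 and 1.71 CPM in untreated libraries. Its log2 fold change was 2.11 (standard error 0.30, edgeR adjusted p = 0.0050), while stard5.S lay at 1.25 ± 0.83 CPM in thioridazine libraries and 1.16 ± 0.52 CPM in untreated libraries (SD, n = 3 each).

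**Figure D2:**
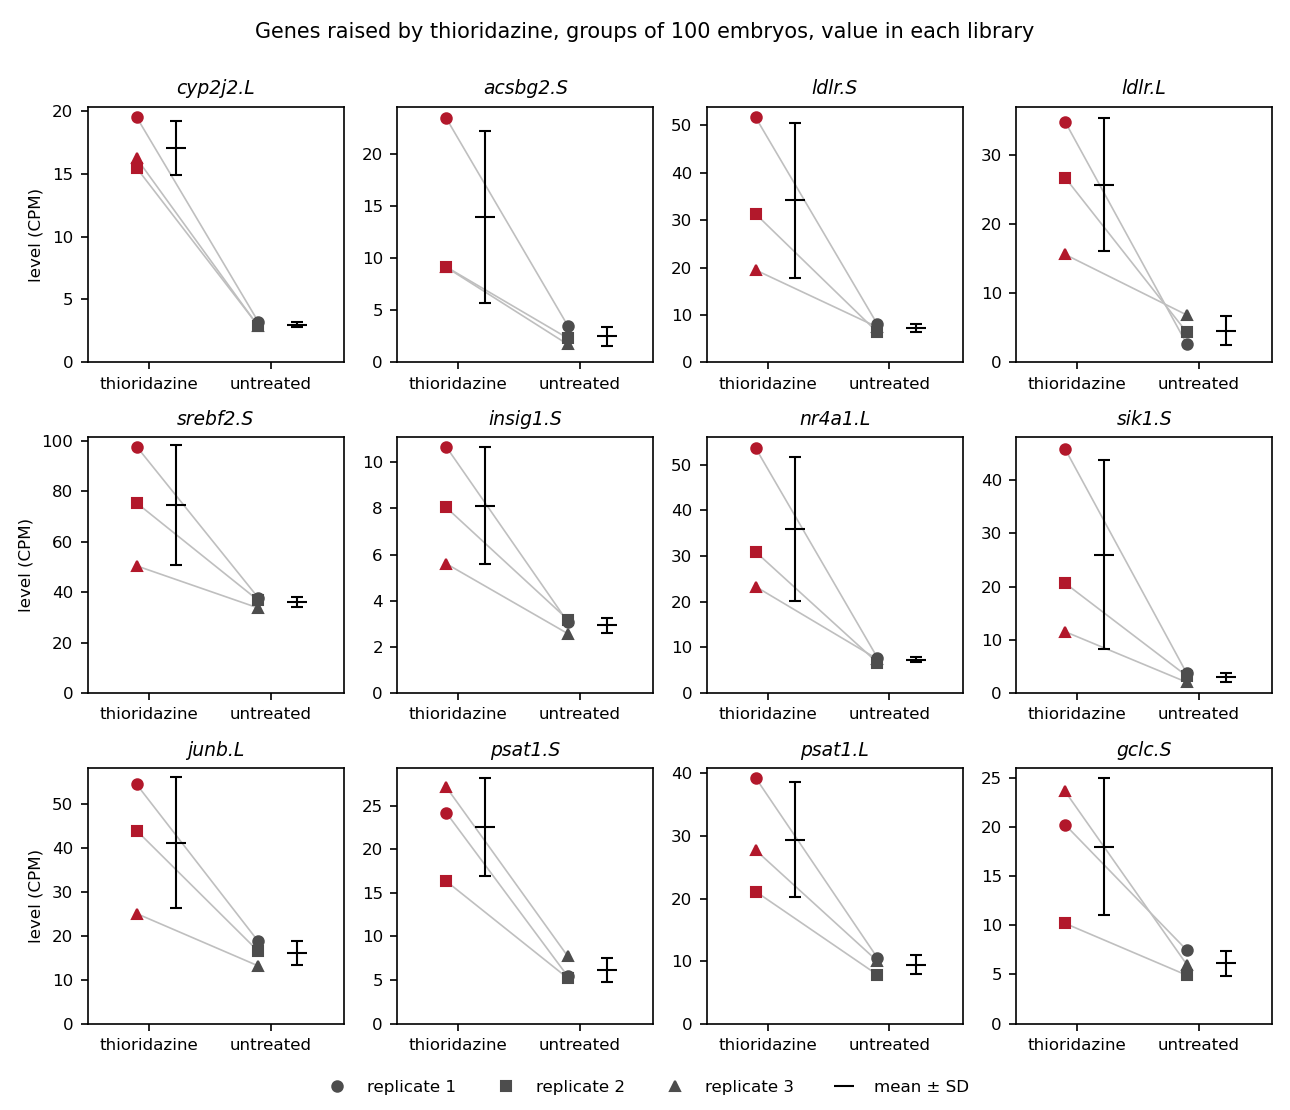
Level in CPM (vertical axes, from 0) of 12 raised genes in the 3 thioridazine libraries (red, left) and the 3 untreated libraries (grey, right) of groups of 100. Symbols and grey lines mark the replicate number and bars give mean ± SD (n = 3); in every panel the groups do not overlap, and in every panel but those of psat1.S and gclc.S thioridazine replicate 1 is the highest library.

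Immediate early and rapidly induced genes gave 4 raised members of 79 measured, 0 that fell and 55 above 0, with a median of 0.19. sik1.S, which encodes a salt-inducible kinase, stood at 45.8, 20.6 and 11.5 CPM in thioridazine libraries, against 3.66, 3.18 and 2.00 CPM in untreated libraries. Its log2 fold change was 3.19 (standard error 0.42, edgeR adjusted p = 0.0043), or 9.14-fold. nr4a1.L stood at 53.7, 30.9 and 23.3 CPM in thioridazine libraries, against 7.76, 6.65 and 7.43 CPM in untreated libraries. In both genes the groups did not overlap and the thioridazine libraries spread far more than the untreated ones, with SDs of 15.8 and 0.57 CPM for nr4a1.L. Its log2 fold change was 2.31 (standard error 0.31, edgeR adjusted p = 0.0039).

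nr4a1.S stood at 51.0, 27.9 and 12.4 CPM in thioridazine libraries, against 14.5, 6.07 and 6.57 CPM in untreated libraries. Here the groups overlapped, since untreated replicate 1 lay above thioridazine replicate 3, and the log2 fold change within replicate numbers was 1.78 (standard error 0.30, edgeR adjusted p = 0.0242). junb.L, which encodes a subunit of the AP-1 transcription factor, stood at 54.5, 44 and 25.1 CPM in thioridazine libraries, against 18.7, 16.5 and 13.1 CPM in untreated libraries (log2 fold change 1.34, standard error 0.22, edgeR adjusted p = 0.0166). The other homeolog, junb.S, did not pass the test (log2 fold change 1.13, standard error 0.22, edgeR adjusted p = 0.0686), nor did atf3.S, a stress-induced transcription factor gene named after its values were seen (1.48, edgeR adjusted p = 0.0719). fos.L, the AP-1 partner of the jun genes, also named after its values were seen, had 30.5, 5.78 and 1.77 CPM in thioridazine libraries, against 1.90, 1.16 and 1.71 CPM in untreated libraries. Most of its difference lay in replicate 1, and it did not pass the test (log2 fold change 3.06, standard error 0.66, edgeR adjusted p = 0.2).

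Genes of the ATF4 response and serine synthesis gave 3 raised members of 41 measured, 0 that fell and 33 above 0, with a median of 0.44. psat1.S, a homeolog of phosphoserine aminotransferase, which makes the precursor of serine, stood at 24.2, 16.3 and 27.1 CPM in thioridazine libraries, against 5.41, 5.20 and 7.71 CPM in untreated libraries. psat1.L stood at 39.3, 21.1 and 27.7 CPM in thioridazine libraries, against 10.5, 7.8 and 10 CPM in untreated libraries. Neither homeolog overlapped between the groups, and replicate 2 was the lowest in both groups. The log2 fold change was 1.91 for psat1.S (standard error 0.21, edgeR adjusted p = 5.3e-04) and 1.63 for psat1.L (standard error 0.22, edgeR adjusted p = 0.0034).

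aldh1l2.S, which encodes a mitochondrial enzyme of folate metabolism, stood at 11.5, 8.05 and 11.5 CPM in thioridazine libraries, against 2.93, 3.76 and 2.00 CPM in untreated libraries. Its log2 fold change was 1.82 (standard error 0.31, edgeR adjusted p = 0.0247). chac1.L, a glutathione-degrading enzyme gene and a known ATF4 target, named after its values were seen, had 68.3, 73.8 and 64.9 CPM in thioridazine libraries, against 25.2, 22.3 and 18.6 CPM in untreated libraries. Its groups did not overlap, but it did not pass the test (log2 fold change 1.67, standard error 0.34, edgeR adjusted p = 0.172). The cytosolic aminoacyl-tRNA synthetases, which charge tRNAs and include ATF4 targets, gave 0 of 32 past the test, with 31 above 0 and a median of 0.21.

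Both homeologs of gclc, the catalytic subunit of the enzyme that starts glutathione synthesis, rose. gclc.S stood at 20.2, 10.2 and 23.6 CPM in thioridazine libraries, against 7.46, 4.91 and 6 CPM in untreated libraries, without overlap (log2 fold change 1.49, standard error 0.22, edgeR adjusted p = 0.0072). gclc.L stood at 87.8, 48.3 and 85.9 CPM in thioridazine libraries, against 43.9, 30.6 and 49.1 CPM in untreated libraries. Its groups overlapped, as thioridazine replicate 2 lay just below untreated replicate 3, and the edgeR adjusted p was 0.0424. They were the 2 raised members of 39 measured genes of glutathione and the NRF2 response, of which 0 fell and 24 lay above 0, with a median of 0.17. cnfn.1.L, of the cornifelin family known from the cornified envelope of mammalian skin, stood at 52.5, 61.7 and 75.8 CPM in thioridazine libraries, against 27.4, 32.7 and 26.6 CPM in untreated libraries (log2 fold change 1.11, standard error 0.15, edgeR adjusted p = 0.0043). For its other homeolog, cnfn.1.S, the log2 fold change was -0.10 (standard error 0.24).

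Of the raised genes, 17 had a tested partner of the same name with .L and .S exchanged, and 7 of those partners were not themselves raised. Among these 7 the log2 fold changes ran from -0.10 to 1.24 with a median of 0.29, and 6 lay above 0. ldlr, psat1, nr4a1 and gclc passed the threshold with both copies, and acsbg2, stard5, srebf2, insig1, junb, cnfn.1 and dnajb14 with one of them. XB22063314.L and XB22063314.S, mentioned here after their values were seen, are among the 17 by name only. Both lie in the same neighbourhood, described next, so their names do not make them a pair of homeologs. The difference between homeologs was not tested.

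By the gene order of the RefSeq annotation, 15 of the 39 raised genes lay in 2 neighbourhoods, with at most 10 annotated genes between a raised gene and the next. The grouping was made after the values were seen, and its ends are set by raised genes. The first neighbourhood spanned 36 annotated genes, of which 13 were tested. Of these, 8 rose, all 13 lay above 0 and 12 had a log2 fold change over 1, with a median of 2.28. The 8 define the neighbourhood and lie above 0 by selection. The other 5 ran from 0.36 to 2.58. Reads that fit several near-identical neighbours were divided between them, so these 5 may not be independent of the raised genes. The 8 raised genes were LOC or XB identifiers without an assigned role, from LOC121396929 (3.10) to LOC108704510 (1.62), 2 genes named after their values were seen. LOC121393141 had the smallest p of the neighbourhood, with 51.4, 142 and 161 CPM in thioridazine libraries, against 9.95, 28.6 and 33.7 CPM in untreated libraries. Its groups did not overlap, and its log2 fold change was 2.31 (standard error 0.22, edgeR adjusted p = 2.7e-04).

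The second neighbourhood spanned 18 annotated genes, of which 14 were tested. Of these, 7 rose, all 14 lay above 0 and 10 had a log2 fold change over 1, with a median of 1.66. Here too the 7 raised genes lie above 0 by selection. The other 7 ran from 0.47 to 1.66 and may share reads with them in the same way. The raised genes held runs of similar names: satpa.L (2.04) and satpb.L (1.88), phyhdla.1.L (3.25) and phyhdlb.L (1.78), and 3 unnamed genes. phyhdlb.L stood at 122, 230 and 227 CPM in thioridazine libraries, against 33.8, 71.4 and 64.6 CPM in untreated libraries, and its log2 fold change had a standard error of 0.24 (edgeR adjusted p = 0.0037). acod1lb.L, between the raised genes and named after its values were seen, did not pass the test, at 275, 969 and 688 CPM in thioridazine libraries, against 161, 292 and 276 CPM in untreated libraries (log2 fold change 1.26, edgeR adjusted p = 0.0681). satpa.L stood at 36.7, 60.7 and 56.6 CPM in thioridazine libraries, against 10.1, 15.9 and 10.6 CPM in untreated libraries, without overlap.

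Replicate 1 was low in both neighbourhoods, whether treated or not. The summed level of the 8 raised genes of the first was 470, 1356 and 1276 CPM in thioridazine libraries, against 115, 248 and 294 CPM in untreated libraries. For the 7 raised genes of the second it was 473, 1196 and 1212 CPM in thioridazine libraries, against 149, 328 and 317 CPM in untreated libraries. Each thioridazine library thus lay above all untreated ones in both sums. The sums hold only genes that the test chose for that difference, so this describes them and adds no support. In ldlr.S, srebf2.S and nr4a1.L, by contrast, thioridazine replicate 1 was the highest of its group.

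**Figure D3:**
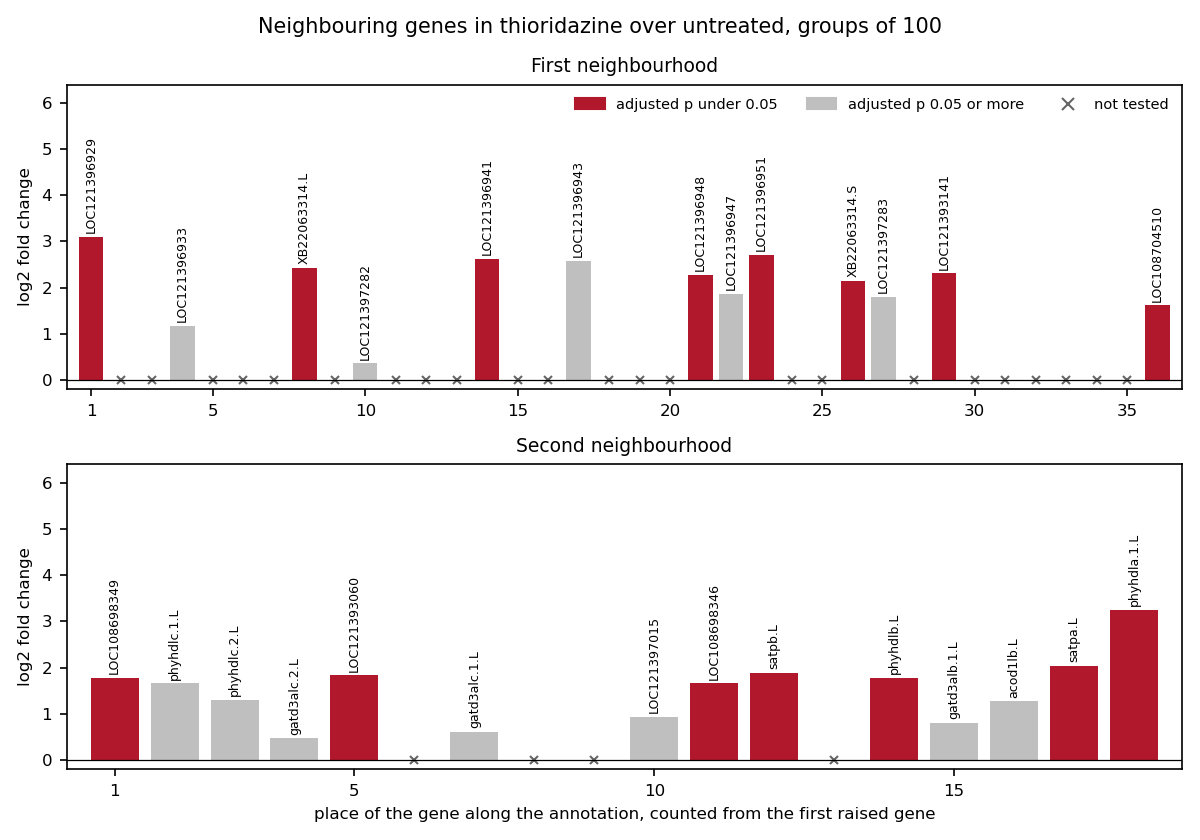
Log2 fold change, thioridazine over untreated in groups of 100 (vertical axes), of the genes of the first (top) and the second (bottom) neighbourhood in their annotated order (horizontal axes, 1 step per gene). Red bars are raised genes, above 0 by selection, grey bars genes that did not pass the test and crosses genes that were not tested. The 5 grey bars at the top and the 7 at the bottom also lie above 0, but near-identical neighbours can share reads with the raised genes.

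No gene was past the threshold in the downward direction, where the smallest edgeR adjusted p was 0.104, although 3 genes passed it when untreated replicate 1 was left out and 1 when all libraries of number 1 were. The gene with that smallest p, gbx2.1.L, encodes a homeodomain factor of the anterior hindbrain and neural plate border, and had 7.83, 24.6 and 20.9 CPM in thioridazine libraries, against 17.7, 36.1 and 35.4 CPM in untreated libraries. The groups overlapped, and the log2 fold change was -0.80 (standard error 0.17). The next 4 by p were sp9.L, a zinc finger factor gene (log2 fold change -0.96), LOC108715640 (-1.02), LOC108711789 (-0.92) and vwa2.L, which encodes an extracellular matrix protein (-0.94). Their edgeR adjusted p lay between 0.304 and 0.731.

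Genes of monoamine handling and of the tissues under study were set beside these results. No dopamine receptor gene passed the filter on low counts, so the dopamine receptors were not tested. Other genes of dopamine and the monoamines gave 0 of 14 past the test, with 8 above 0 and a median of 0.03. The 2 with the smallest p were pcbd1.L, of the recycling of the cofactor of monoamine synthesis (log2 fold change -0.88, standard error 0.39), and htr7l.S, a serotonin receptor gene (1.36, standard error 0.72). Calmodulin and calcium signalling gave 0 of 59, with a median of 0.00. In that list the L-type calcium channel gene cacna1c.L was at -0.52 (standard error 0.24) and the calcium pump gene atp2a2.S at 0.27 (standard error 0.15).

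Purinergic receptors and ATP release gave 0 of 30 past the test, with a median of -0.06. Its smallest p values belonged to the adenosine receptor genes adora2a.S (log2 fold change 0.37, standard error 0.23) and adora1.S (-0.68, standard error 0.43). Neural crest gave 0 of 41, with a median of 0.06; pax7.L was at -0.90 (standard error 0.44) and pax3.S at 0.32 (standard error 0.21). Pigment cells and melanin gave 0 of 18, with a median of 0.05; the melanosome genes pmel.L and gpr143.L were at 0.47 (standard error 0.32) and 0.20 (standard error 0.16).

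Marker lists of the tissues in the embryo held no gene past the test, but some leaned to one side. Of the 36 markers of endoderm, liver and pancreas, 5 lay above 0, with a median of -0.26, and their summed level ranged from 2197 to 4451 CPM in thioridazine libraries, against 2919 to 4314 CPM in untreated libraries. Of the 45 markers of notochord and tail bud, 5 lay above 0, with a median of -0.21, and the sum ranged from 924 to 1514 CPM in thioridazine libraries, against 1319 to 1700 CPM in untreated libraries. The pair medians were -0.29, -0.43 and -0.02 for the endoderm list and -0.48, 0.06 and -0.08 for the notochord list, so pair 2 did not share the lean of the notochord list. Cytosolic ribosomal proteins, with 9 of 127 above 0, had a median of -0.08, and their pair medians were 0.36, -0.48 and -0.04, so pair 1 did not share the lean. Among the other lists, heart gave 4 of 21 above 0 (median -0.11), neural progenitors 20 of 66 (-0.09) and pronephros 10 of 28 (-0.17). Multiciliated cells and ionocytes gave 26 of 37 above 0 (median 0.15). In each of these lists the pair medians lay on both sides of 0. Markers of skeletal muscle had a median of 0.01, those of differentiating neurons 0.00 and those of epidermis 0.09. The part of these shifts in the raised genes was not tested.

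**Figure D4:**
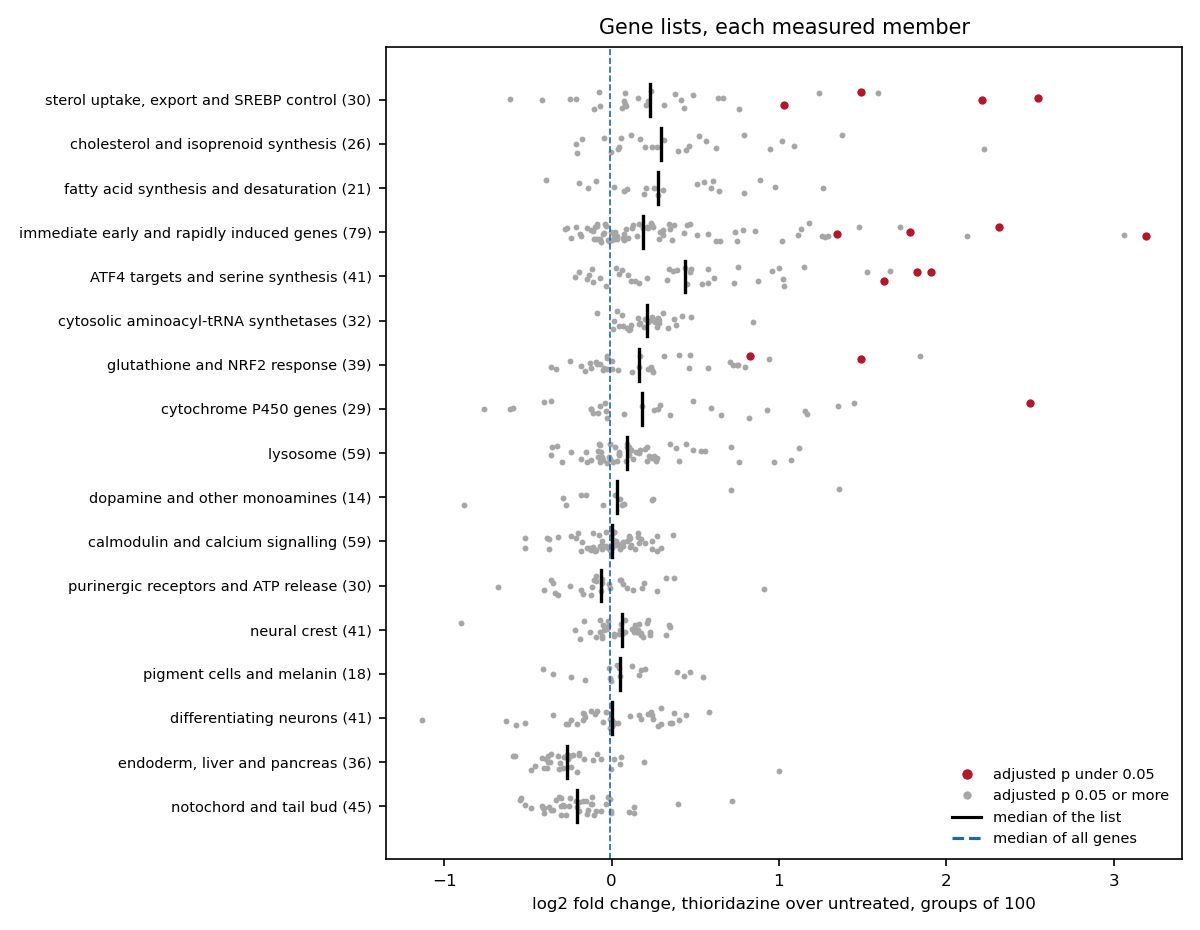
Log2 fold change, thioridazine over untreated in groups of 100 (horizontal axis), of each measured gene in 17 lists (rows, number measured in brackets). Red points passed the test and black ticks are list medians, from 0.44 for ATF4 targets and serine synthesis to -0.26 for endoderm, liver and pancreas; the dashed line is the median of all genes, -0.01.

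The same comparison in large (300-embryo) groups used none of these 6 libraries, although both comparisons shared the estimate of the spread and of the block. There 56 genes were raised (0.258% of the genes tested) and 0 lowered. Without the block 2 were raised there, leaving out 1 of its libraries gave 26 to 60, and leaving out number 2 or number 3 gave 16 or 25. All 39 genes raised in groups of 100 lay above 0 in groups of 300, 37 had an unadjusted p under 0.05 there and 29 were raised, which is 74.4% of the 39 and 51.8% of the 56. Over all genes tested, 48.6% lay above 0 in groups of 300, and 1638 of 21731 had an unadjusted p under 0.05 there. In groups of 300, 30 of the 39 had no overlap between thioridazine and untreated libraries, against 3.97% of all genes tested. The median log2 fold change of the 39 was 2.04 in groups of 100 and 2.12 in groups of 300.

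The difference between the responses, groups of 100 minus groups of 300, was past the threshold for 0 of 21731 genes (0%; smallest edgeR adjusted p 0.704), and 1176 genes had p under 0.05 without adjustment, against 1087 by chance. DESeq2 called 1 gene in each direction. Among the 39 genes, 23 had the larger fold change in groups of 100, against 50.7% of all genes tested. An unadjusted p of the difference under 0.05, in either direction, was found for 8 of the 39. Of these 8, LOC108704510 had the larger fold change in groups of 300 (difference -0.79, standard error 0.31). These 39 were selected in groups of 100, which favours larger values there.

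The 3 raised genes of the ATF4 and serine synthesis list were among those with the largest such differences, given as values without a call. The list as a whole had a median of 0.44 with 33 of 41 genes above 0 in groups of 100, and of 0.37 with 35 of 41 above 0 in groups of 300, and its 3 raised genes had been selected in groups of 100. The list of immediate early and rapidly induced genes had a median of 0.19 in groups of 100 and 0.34 in groups of 300. Of its 79 genes, 4 were raised in groups of 100 and 9 in groups of 300. Over all genes tested, 0.179% and 0.258% were raised. For psat1.L the log2 fold change was 1.63 in groups of 100 and 0.50 in groups of 300 (difference 1.13, standard error 0.30), and for psat1.S it was 1.91 in groups of 100 and 1.07 in groups of 300 (difference 0.84, standard error 0.29). aldh1l2.S had 1.82 in groups of 100 and 0.35 in groups of 300 (difference 1.48, standard error 0.44). In groups of 300 aldh1l2.S stood at 4.87, 4.03 and 9.09 CPM in thioridazine libraries, against 5.30, 3.61 and 4.46 CPM in untreated libraries, which overlapped. Its untreated mean was 2.89 CPM in groups of 100 and 4.46 CPM in groups of 300. The part of the untreated levels in these differences was not tested. The largest difference of a raised gene was that of LOC108713130, with 2.63 in groups of 100 and 0.70 in groups of 300 (difference 1.93, standard error 0.39). Its untreated levels were low and differed between group sizes. In groups of 100 it stood at 15.7, 10.4 and 9.74 CPM in thioridazine libraries, against 3.07, 1.16 and 1.43 CPM in untreated libraries. In groups of 300 it stood at 9.15, 4.97 and 9.40 CPM in thioridazine libraries, against 6.09, 3.01 and 5.17 CPM in untreated libraries. Each of the 8 raised genes of the first neighbourhood had the larger fold change in groups of 300, where all 8 were raised again, as were all 7 of the second. In pair 1 the log2 ratio of each of the 8 was larger in groups of 300, while pairs 2 and 3 were mixed. LOC121393141 had pair ratios of 2.26, 2.27 and 2.22 in groups of 100. In groups of 300 they were 3.45, 2.61 and 2.34. For LOC121396951, named after its values were seen, they were 1.67, 3.20 and 2.78 in groups of 100. In groups of 300 these were 3.71, 2.38 and 2.14.

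Outside the raised genes, the smallest p of the difference on the side of groups of 100 belonged to LOC108702985 (difference 2.34), atad3a.S, a mitochondrial ATPase gene (1.18), LOC108700035 (1.43) and mypn.S, a sarcomere gene (1.05). On the other side they belonged to XB22064002.S (-1.56), gbx2.1.L (-1.28), ventx1.2.S, a ventral homeobox gene (-1.34), tnip2.L (-1.14) and egln3.L, an oxygen-sensing prolyl hydroxylase gene (-1.27). None of these passed the threshold. LOC108702985 was near the floor outside replicate 1. In groups of 100 it stood at 35.2, 1.01 and 1.18 CPM in thioridazine libraries, against 17.0, 0.87 and 3.14 CPM in untreated libraries. Its log2 ratios within those pairs were 1.01, 0.10 and -0.93. egln3.L stood at 19.5, 31.4 and 42.5 CPM in thioridazine libraries of groups of 100, against 33.2, 29.8 and 43.1 CPM in untreated ones. In groups of 300 it stood at 37.0, 48.6 and 59.1 CPM in thioridazine libraries, against 18.3, 27.7 and 24.8 CPM in untreated libraries, without overlap.

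**Figure D5:**
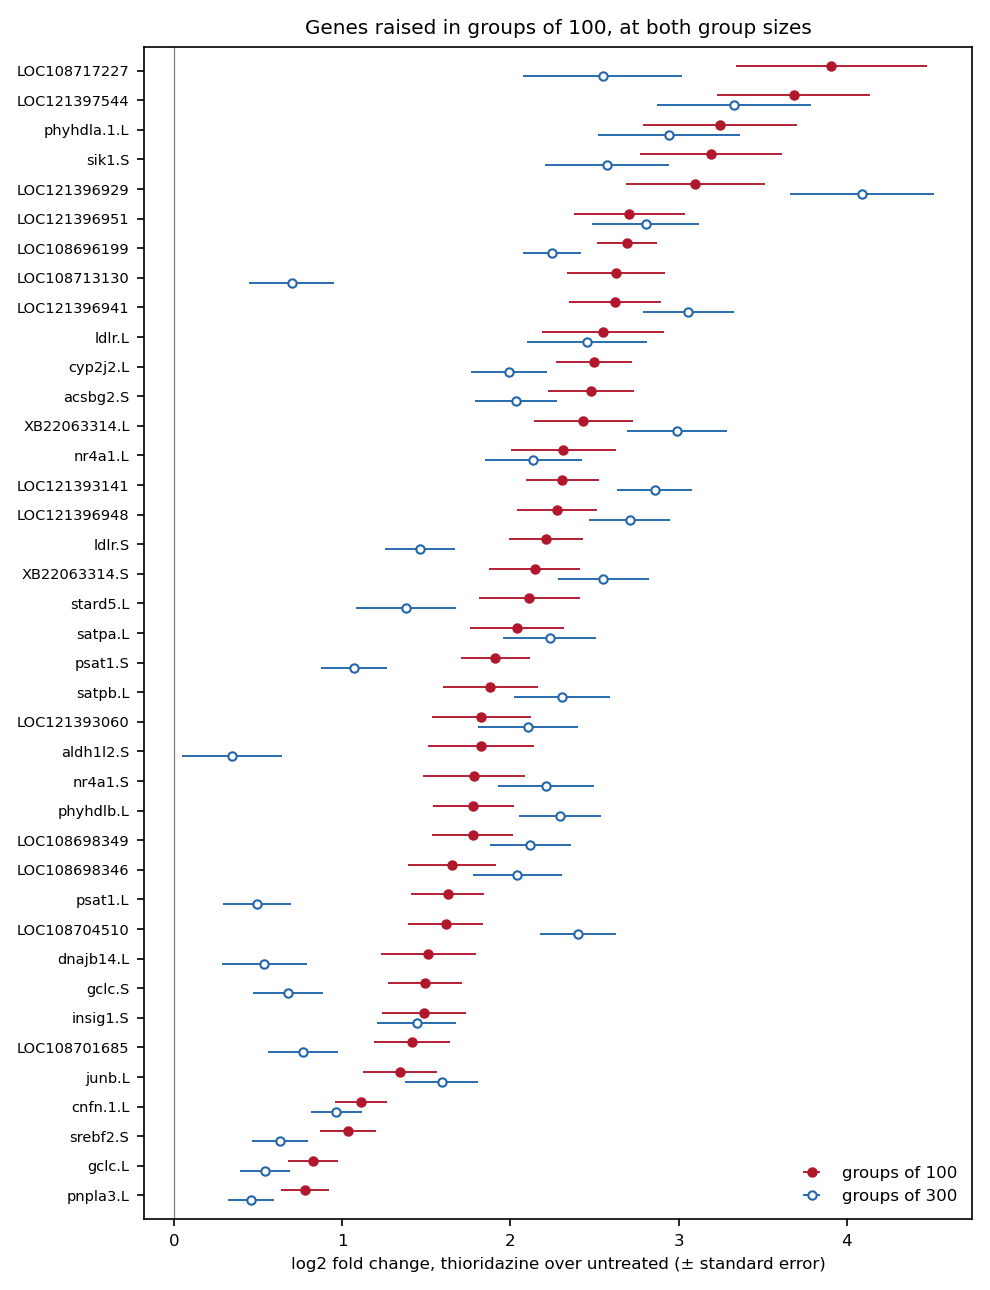
Log2 fold change, thioridazine over untreated, with its standard error (horizontal axis), of the 39 genes raised in groups of 100 (rows), in groups of 100 (filled red) and in groups of 300 (open blue). All open points lie above 0, from 0.35 for aldh1l2.S to 4.09 for LOC121396929.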

How the data were processed

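The analysis covered 6 libraries of groups of 100 and, for comparison, 6 of groups of 300, sequenced as single-end reads of 75 nt from rRNA-depleted RNA. After trimming (fastp), alignment to rRNA (Bowtie2) and alignment to the genome (STAR), the authors deposited RSEM expected counts per gene. The authors also deposited log2 CPM for 21720 genes, after a filter, TMM and voom. Per the submitters' processing notes the tools were Bowtie2, STAR, RSEM and limma. Their versions and the genome build: not given in the sources used here. Genes and lists were chosen with earlier results of these data known.

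Expected counts (25.7% not whole) were rounded, filtered at 1.8 CPM in 3 of 12 libraries, scaled by TMM and tested with edgeR 4.0.16 in R 4.3.3 (quasi-likelihood, robust, Benjamini-Hochberg, threshold 0.05). All 12 libraries were fitted with 4 group means and the replicate number as a block, which left 6 residual degrees of freedom. Standard errors are of the log2 fold change, and levels are TMM-scaled CPM. Pair values are log2 ratios of CPM + 1. Counts of any 2 of the 6 libraries of groups of 100 differed beyond sampling noise (chi-square per gene at least 3.03), so none was counted as a duplicate.

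The block was used because the labels number the samples of each group 1 to 3, the study's methods adjust for batch, and same-numbered libraries of groups of 100 correlated at 0.783, 0.412 and 0.663. In data simulated for thioridazine against untreated in groups of 100 (21387 genes, 200 changed), 98% of changes of 4-fold and 77% of those of 2-fold were found with the block, and 14 of 189 calls were false. Without the block these were 76% and 9%, and 0 of 85 calls were false. The simulated replicate effects and spread were taken from the fit with the block. The higher recovery with the block was thus built in and is no evidence for using it.

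Genes were named by rule: the 15 with the smallest p per direction among called genes with a symbol and up to 2 without, the 5 with the smallest p as values where fewer than 5 passed, other homeologs, up to 4 called members of a list, 2 members as values for 5 lists, up to 5 per direction for the difference, and adjacent called genes. Others are marked as named after their values were seen. Of 42638 identifiers, 40077 matched the RefSeq annotation of Xenopus_laevis_v10.1, used only for names and gene order. List members carry both homeologs, and lists overlap. Genes that a name pattern had wrongly put in a list (HtrA proteases, keratinocyte-associated proteins), and P450 reductase, were removed after the values were seen. Alternatives were DESeq2 1.42.0, limma 3.58.1 (voom, voom with 2 surrogate variables from sva 3.50.0, and a trend fit on the deposited log2 CPM), RLE size factors, no filter, 6 libraries alone, no block, and each library or replicate number left out.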

Additional observations from a re-analysis of the deposited data

Results flagged for a closer look

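Some responses pointed in opposite directions at the 2 group sizes, with every pair of libraries on one side of 0 in groups of 100 and on the other side in groups of 300. Some of these pair values were close to 0. In groups of 100 the pair 3 median of the endoderm, liver and pancreas markers was -0.021, and pair 1 of pax3.S was 0.0098. In groups of 300 the pair 3 median of the aminoacyl-tRNA synthetases was -0.043. The median log2 fold change of the cytosolic aminoacyl-tRNA synthetases was 0.21 in groups of 100 and -0.083 in groups of 300. That of the endoderm, liver and pancreas markers was -0.26 in groups of 100 and 0.33 in groups of 300. For these lists the difference was not tested. Untreated levels differed too. The summed level of the synthetases in untreated libraries was 1323 to 1597 CPM in groups of 100 and 1639 to 1690 CPM in groups of 300. For the endoderm list it was 2919 to 4314 CPM in groups of 100 and 1944 to 2483 CPM in groups of 300. In thioridazine libraries the sums of both lists overlapped between group sizes. The part of the untreated levels in these reversals was not tested. gbx2.1.L had a log2 fold change of -0.80 in groups of 100 and 0.48 in groups of 300. In the same order of group sizes, the values were -1.02 and 0.56 for LOC108715640, 0.32 and -0.18 for pax3.S, 0.44 and -0.73 for atad3a.S, 0.83 and -0.60 for LOC108700035, 0.39 and -0.66 for mypn.S, and -0.56 and 0.79 for ventx1.2.S. Among these, gbx2.1.L, atad3a.S, LOC108700035, mypn.S and ventx1.2.S had been picked because the p of their difference was small. LOC108715640 had been picked for its small p below 0 in groups of 100, and pax3.S for its small p within the neural crest list there. How many of all the genes tested reverse in this way was not counted. In the test of the difference 0 of the 7 genes passed the threshold after adjustment over all genes (edgeR's quasi-likelihood test). For atad3a.S the untreated levels also differed, at 11.6, 14.7 and 12.6 CPM in groups of 100. In groups of 300 they were 21.9, 19.3 and 20.0 CPM, without overlap.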

How the results depend on the processing

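The count of 39 genes raised in groups of 100 depended on the replicate block: without it 2 were raised, and with the 6 libraries alone and no block 0. With the block the count was 48 with the 6 libraries alone, 52 with DESeq2, 47 with limma voom, 46 with surrogate variables, 38 on the authors' log2 values, 38 with RLE size factors and 53 without a filter, and DESeq2 and voom each called all 39. Leaving out a library or a replicate number gave 11 to 41 raised and 0 to 3 lowered genes, and 1 was lowered without a filter. Of 24 alternatives, LOC108696199 and cyp2j2.L lost their call in 1, gclc.L in 16, dnajb14.L in 18 and pnpla3.L in 19. The homeolog junb.S, not called above, passed the threshold in 6 of the 24. With a pseudocount of 2 the pair medians were 1.84 in pair 2 and 1.68 in pair 3.

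In groups of 300, the 56 raised genes became 2 without the block, 0 with the 6 libraries alone and no block, 156 with the 6 libraries alone and the block, 90 with DESeq2, 36 with surrogate variables, 94 without a filter, and 16 to 72 with a library or number left out. Lowered genes there became 24, 3, 8, 1, 1 and 5 with the 6 libraries and the block, DESeq2, voom, surrogate variables, the authors' log2 values and no filter, and 0 to 5 with a library or number left out. For the difference between group sizes, DESeq2, surrogate variables and the authors' log2 values each gave 1 gene above, DESeq2 and no filter 1 below, and leaving out a library or number 0 to 1 in each direction.

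Among homeologs that did not pass in any of these fits, the log2 fold change of cnfn.1.S was near 0 and changed sign: it was 0.0026 without the block and 0.0029 with the 6 libraries alone and no block, and ran from -0.38 to 0.14 with a library or number left out. The log2 fold change of stard5.S was -0.12 on the authors' log2 values and ran from -0.29 to 0.44. In each case the cause was not tested.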
